A study of Mus musculus with 20 samples.

Results

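Interleukin-6 (IL-6) family cytokines were followed in endothelial cells of inflamed and uninflamed mouse ears, through 9 genes chosen by symbol: the cytokine genes Il6, Il11 and Lif, the receptor genes Osmr, Il6ra, Il6st and Lifr, the feedback inhibitor gene Socs3 and the transcription factor gene Stat3. Each gene was read from a probe set carrying its symbol alone, and from the one with the highest mean where there were several. All 9 had such a probe set, among 22180 genes on the array that did, and all 9 were bright enough to be tested, among 14178 genes tested. Endothelial cells were sorted as CD31+CD45-Ter119- from ears digested with collagenase I, and 20 Affymetrix arrays were made from 1 ng of total RNA each. The groups were 4 arrays of DNFB-treated ears of NICD mice, 4 of vehicle-treated ears of NICD mice, 6 of DNFB-treated ears of control mice and 6 of vehicle-treated ears of control mice. NICD mice are described in the labels as overexpressing the Notch1 intracellular domain, a constitutively active form of Notch1, in endothelial cells after Cre induction. Their genotype label reads Pdgfb-CreERT2; R26-NICD, whereas the protocol describes a Rosa NICD/NICD allele with CDH5-iCre, so the promoter driving the Cre is not settled here. The genotype of the control mice is given as control alone, and no age is given. The protocol, written without exceptions for any group, gives all mice 5 daily tamoxifen injections, sensitises them through the skin with DNFB (dinitrofluorobenzene, a hapten that elicits contact hypersensitivity) on days 0 and 1, and challenges an ear on day 5. Ears were taken 24 hours later. It does not say what vehicle ears received, whether vehicle and DNFB ears came from the same mice, or whether ears were pooled, so the p-values measure the spread between these samples, which may in part be technical.

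The cytokines of the IL-6 family share the signalling receptor gp130, encoded by Il6st. IL-6 and IL-11 reach gp130 through their own binding receptors (Il6ra and Il11ra1), whereas leukaemia inhibitory factor (Lif) and oncostatin M signal through gp130 paired with Lifr or Osmr. Bound gp130 activates JAK kinases, which phosphorylate STAT3. STAT3 then drives Socs3, whose product binds gp130 and JAK and shuts the signal down. Endothelial cells are a known source of IL-6 in inflammation, and they can also respond to IL-6 bound to soluble receptor that other cells shed.

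The promoters of the 3 cytokine genes and of Socs3 are shown because letters of AP-1, NF-kB or STAT motifs stand in them. The NF-kB letters of Il6 are a well-known element, whereas the STAT letters of Socs3 are a match of letters alone. Each is the 250 bases before a RefSeq transcription start (build GRCm38.p6), written along the strand of the gene. Capitals mark the AP-1 letters TGAGTCA (either strand) in Il6, Il11 and Lif, the NF-kB letters GGGANTTTC in Il6, and the STAT letters TTCNNNGAA in Socs3.
Il6 (chr5:30012864-30013113, plus strand): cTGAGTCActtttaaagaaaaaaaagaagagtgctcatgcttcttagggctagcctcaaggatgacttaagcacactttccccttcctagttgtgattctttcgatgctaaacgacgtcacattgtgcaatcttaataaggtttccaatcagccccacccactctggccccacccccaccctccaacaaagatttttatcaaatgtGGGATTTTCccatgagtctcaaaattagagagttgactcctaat
Il11 (chr7:4778142-4778391, minus strand): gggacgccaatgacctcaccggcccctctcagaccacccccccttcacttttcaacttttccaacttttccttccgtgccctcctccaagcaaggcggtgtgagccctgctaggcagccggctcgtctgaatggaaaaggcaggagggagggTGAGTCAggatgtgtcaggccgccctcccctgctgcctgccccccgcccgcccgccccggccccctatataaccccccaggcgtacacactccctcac
Lif (chr11:4257318-4257567, plus strand): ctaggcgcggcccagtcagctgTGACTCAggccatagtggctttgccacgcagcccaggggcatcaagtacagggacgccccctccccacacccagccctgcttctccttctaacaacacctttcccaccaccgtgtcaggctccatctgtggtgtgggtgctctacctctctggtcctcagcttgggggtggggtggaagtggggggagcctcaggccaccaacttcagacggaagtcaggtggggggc
Socs3 (chr11:117969367-117969616, minus strand): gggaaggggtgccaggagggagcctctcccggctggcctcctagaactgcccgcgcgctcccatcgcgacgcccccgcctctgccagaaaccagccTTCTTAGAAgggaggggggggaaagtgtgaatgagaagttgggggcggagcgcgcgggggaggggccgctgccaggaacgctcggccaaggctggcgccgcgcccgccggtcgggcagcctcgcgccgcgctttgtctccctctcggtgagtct
All 9 genes had a promoter window of this kind in RefSeq, 11 windows in all, because Il11 and Lifr have 2 starts each; for Il11 the window that holds the letters is printed. The AP-1 letters stood in 3 of the 9 genes, Il6, Il11 and Lif, in 1 window each, out of the 11 windows. Over all 32851 windows of the same length they stood in 4.46%. The STAT letters stood in the window of 1 gene, Socs3, and in 7.02% of all windows, and the NF-kB letters stood in Il6 and in 0.941% of all windows. The CRE letters TGACGTCA, searched as well, stood in none of the 11 windows and in 1.55% of all windows. The motifs overlapped nowhere in the 4 printed windows. These letters were chosen with the sequences in view, and they describe the windows without showing that a factor bound them in these cells.

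All values below are log2 RMA values, and all differences are on the log2 scale with ± 1 standard error. A gene passed where the adjusted p was under 0.05 (limma, Benjamini-Hochberg over 14886 probe sets). All 15 pan-endothelial markers lay above the median of the array on every array. Arrays of the same group correlated at 0.944 to 0.981. The median of the array was 3.52 to 3.62 on the 8 NICD arrays and 3.87 to 3.98 on the 12 control arrays. Xist was 8.47 to 9.07 on NICD arrays and 2.27 to 3.16 on control arrays, and the Y-linked Eif2s3y was 2.11 to 2.79 on NICD arrays and 6.08 to 7.12 on control arrays. Notch1 itself was 9.47 to 9.87 on NICD arrays and 9.52 to 10.02 on control arrays, and since the part of the transcript its probes cover is not given in the sources used here, these values do not check the transgene. Genotype cannot be told apart from sex or from the difference in array medians, and the labels name no array batch. Comparisons of DNFB with vehicle stay within a genotype. For replicate 4 of the NICD vehicle group the description names DNFB while the title names vehicle, and the title was followed.

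DNFB raised the cytokine genes and lowered the signalling receptors Il6st and Lifr in both genotypes, as the plot of the DNFB differences shows. In NICD mice, 4 of the 9 genes rose (Il6, Il11, Lif and Socs3), 2 fell (Il6st and Lifr) and 3 did not pass (Osmr, Il6ra and Stat3). Over all probe sets tested in NICD mice, 20% rose and 18.1% fell. In control mice, 6 of the 9 rose (Il6, Il11, Lif, Osmr, Socs3 and Stat3), 2 fell (Il6st and Lifr) and Il6ra did not pass. Over all probe sets tested in control mice, 23.7% rose and 23.6% fell. The median difference of the 9 genes was 0.25 in NICD mice and 0.38 in control mice, beside medians of 0.0067 and -0.0012 over all probe sets tested. The groups did not overlap for 5 genes higher and 2 lower in each genotype, beside 19.9% and 17.4% of all probe sets in NICD mice and 13.6% and 13.2% in control mice. The counts in NICD mice were the same without NICD vehicle replicate 4. The counts in control mice rest in part on 2 small rises, in Osmr and Socs3, which single arrays can remove.

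**Figure D1:**
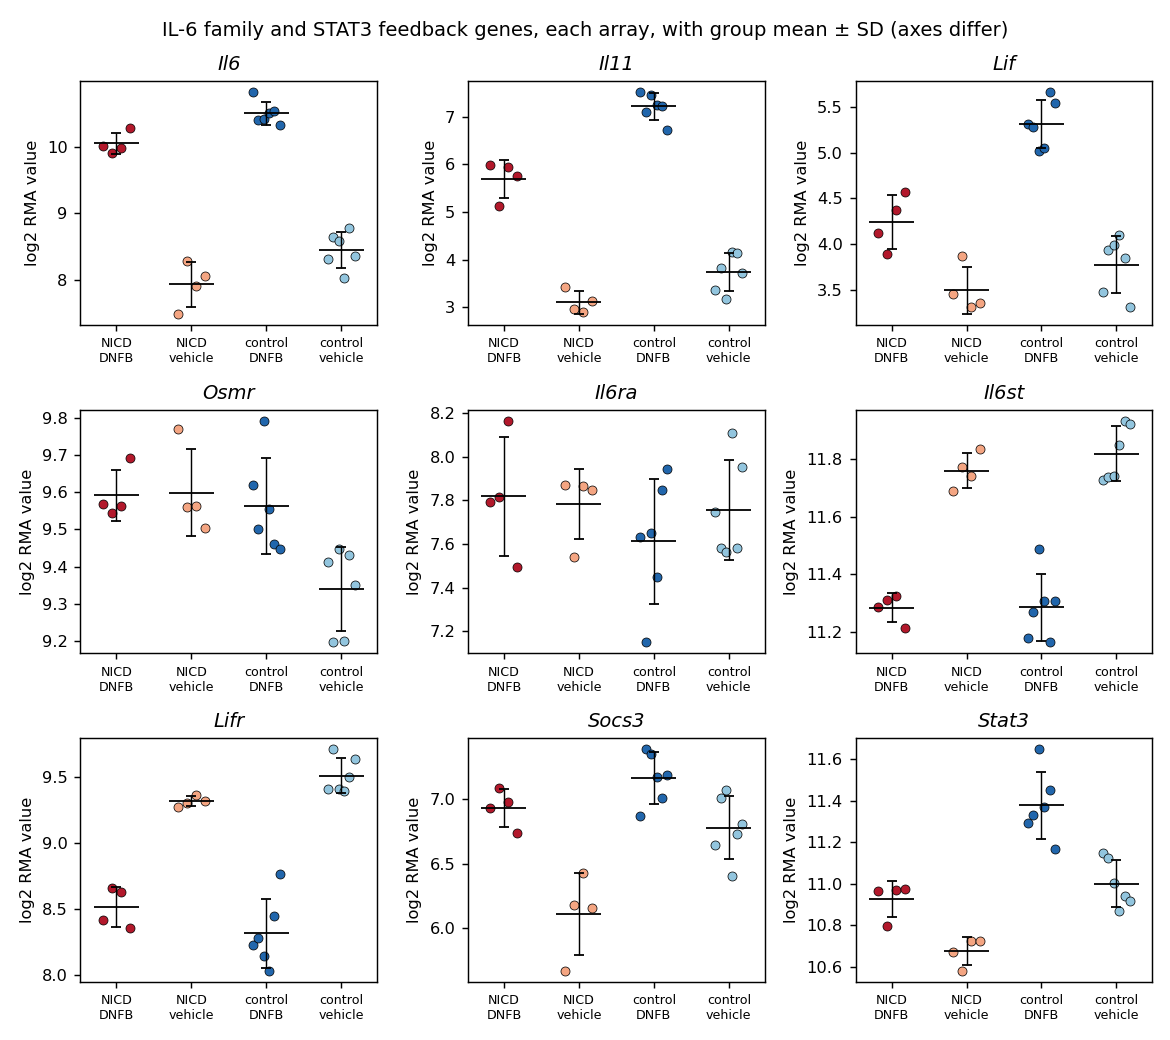
Log2 RMA value (vertical axes, which differ between panels) of each of the 9 genes on each array, with points for arrays and bars for the group mean ± SD (n = 4 in NICD groups, 6 in control groups). Il6, Il11 and Lif lie higher on every DNFB array than on any vehicle array of the same genotype, and Il6st and Lifr lie lower.

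Il6 (probe set 17435725) encodes the founding cytokine of the family. In NICD mice it read 10.01, 9.91, 9.98 and 10.28 in DNFB ears, against 7.49, 8.29, 7.90 and 8.06 in vehicle ears. In control mice it ran from 10.32 to 10.82 (median 10.46) in DNFB ears, against 8.03 to 8.78 (median 8.47) in vehicle ears. Every DNFB array was above every vehicle array in both genotypes, and the vehicle arrays already lay far above the median of the array. The difference was 2.11 ± 0.17 in NICD mice (4.32-fold, adjusted p 1.2e-08), close in size to that in control mice, 2.05 ± 0.14 (4.13-fold, adjusted p 4.1e-10). The NICD difference exceeded the control one by 0.065 ± 0.22 (adjusted p 0.943), with a 95% interval from -0.39 to 0.52.

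Il11 (probe set 17485924), a cytokine known for its action on stromal and epithelial cells, had the largest DNFB difference of the 9 genes in both genotypes. In NICD mice it read 5.99, 5.12, 5.93 and 5.75 in DNFB ears, against 3.43, 2.96, 2.89 and 3.13 in vehicle ears. The control arrays ran from 6.72 to 7.52 (median 7.24) in DNFB ears, against 3.18 to 4.17 (median 3.78) in vehicle ears. The 2 treatments did not overlap in either genotype, and the NICD DNFB arrays lay between the control DNFB and the vehicle arrays. It rose by 2.60 ± 0.23 in NICD mice (6.04-fold, adjusted p 3.2e-08) and by 3.48 ± 0.19 in control mice (11.2-fold, adjusted p 3.31e-11). The difference between the effects, -0.89 ± 0.29, did not pass (unadjusted p 0.00682, adjusted p 0.281).

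Lif (probe set 17246810) encodes leukaemia inhibitory factor, a ligand of the gp130 and Lifr pair. In NICD mice it read 4.12, 3.90, 4.37 and 4.57 in DNFB ears, against 3.45, 3.87, 3.31 and 3.35 in vehicle ears. In control mice it ran from 5.02 to 5.66 (median 5.30) in DNFB ears, against 3.31 to 4.10 (median 3.89) in vehicle ears. The treatments did not overlap, although the lowest NICD DNFB array and the highest NICD vehicle array were almost level. Lif rose by 0.74 ± 0.19 in NICD mice (1.67-fold, adjusted p 0.00428) and by 1.53 ± 0.16 in control mice (2.90-fold, adjusted p 1.07e-07). The difference between the effects, -0.79 ± 0.25, did not pass (unadjusted p 0.00475, adjusted p 0.268).

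Il11 and Lif were near the middle of the array without DNFB. Il11 was above the median of the array on 0 of 4 NICD vehicle arrays and 2 of 6 control vehicle arrays, and Lif on 1 of 4 and 3 of 6, whereas both were above it on all 10 DNFB arrays. The filter on low values needs 4 arrays above that median. Il11 thus passed it through the DNFB arrays, so that its inclusion is not independent of the rise, whereas Lif had 4 such vehicle arrays. No detection calls were used, and the size of a rise from such low values may be understated.

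The shared receptor Il6st (probe set 17289889) encodes gp130. In NICD mice it read 11.29, 11.31, 11.32 and 11.21 in DNFB ears, against 11.69, 11.78, 11.74 and 11.84 in vehicle ears. The control arrays ran from 11.16 to 11.49 (median 11.29) in DNFB ears, against 11.73 to 11.94 (median 11.80) in vehicle ears. The 2 treatments did not overlap in either genotype, and the NICD DNFB arrays lay within the range of the control DNFB arrays. Il6st fell by 0.48 ± 0.093 in NICD mice (1.39-fold lower, adjusted p 0.000373) and by 0.53 ± 0.076 in control mice (1.45-fold lower, adjusted p 7.41e-06).

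Lifr (probe set 17310044) encodes the receptor that pairs with gp130 for Lif. In NICD mice it read 8.41, 8.66, 8.63 and 8.35 in DNFB ears, against 9.27, 9.30, 9.36 and 9.32 in vehicle ears. In control mice it ran from 8.03 to 8.77 (median 8.26) in DNFB ears, against 9.39 to 9.71 (median 9.45) in vehicle ears. All DNFB arrays were lower than all vehicle arrays. The 4 NICD vehicle arrays lay closer together than those of any other group. Lifr fell by 0.80 ± 0.13 in NICD mice (1.74-fold lower, adjusted p 7.28e-05) and by 1.19 ± 0.11 in control mice (2.28-fold lower, adjusted p 2.51e-08). The difference between the effects was 0.39 ± 0.17 and did not pass (unadjusted p 0.0365, adjusted p 0.43).

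Osmr (probe set 17315743) encodes the receptor that pairs with gp130 for oncostatin M. In NICD mice it read 9.57, 9.54, 9.56 and 9.69 in DNFB ears, against 9.77, 9.56, 9.56 and 9.50 in vehicle ears, groups that overlapped. The control arrays ran from 9.45 to 9.79 (median 9.53) in DNFB ears, against 9.20 to 9.45 (median 9.38) in vehicle ears, groups that touched without overlapping. The difference was -0.0080 ± 0.10 in NICD mice (adjusted p 0.963), and Osmr rose by 0.22 ± 0.083 in control mice (1.17-fold, adjusted p 0.0332). The control rise was lost without any 1 of control DNFB replicates 1 and 3 or control vehicle replicates 2 and 4 (adjusted p up to 0.082), and it did not pass after quantile normalization (0.14, adjusted p 0.205), with no filter on low values (adjusted p 0.0673) or in a fit to the control arrays alone (adjusted p 0.0655).

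Il6ra (probe set 17407138), the binding receptor for IL-6, did not pass in either genotype. In NICD mice it read 7.79, 7.82, 8.17 and 7.50 in DNFB ears, against 7.87, 7.54, 7.87 and 7.85 in vehicle ears. In control mice it ran from 7.15 to 7.95 (median 7.64) in DNFB ears, against 7.57 to 8.11 (median 7.67) in vehicle ears. The groups overlapped, with differences of 0.036 ± 0.17 in NICD mice (95% interval -0.32 to 0.40, adjusted p 0.897) and -0.14 ± 0.14 in control mice (-0.44 to 0.15, adjusted p 0.425). A rise or fall of the size seen in Lifr in the same mice lies outside these intervals.

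Socs3 had 2 probe sets of its own. On the brighter one (probe set 17547600), NICD mice read 6.93, 7.09, 6.98 and 6.74 in DNFB ears, against 5.67, 6.18, 6.43 and 6.16 in vehicle ears. Control mice ran from 6.87 to 7.39 (median 7.18) in DNFB ears, against 6.41 to 7.07 (median 6.77) in vehicle ears. The treatments overlapped in control mice alone. Socs3 rose by 0.82 ± 0.16 in NICD mice (1.77-fold, adjusted p 0.000449) and by 0.38 ± 0.13 in control mice (1.30-fold, adjusted p 0.0234). Without any 1 of control DNFB replicates 2 and 3 or control vehicle replicate 4 the control rise was lost (adjusted p up to 0.0664). The difference between the effects was 0.44 ± 0.21 (adjusted p 0.472). On the other probe set (17272619), where the treatments overlapped in neither genotype, Socs3 rose by 0.75 ± 0.14 in NICD mice (adjusted p 0.000277) and by 0.63 ± 0.12 in control mice (adjusted p 0.000149).

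Stat3 (probe set 17269717) read 10.96, 10.80, 10.97 and 10.98 in NICD DNFB ears, against 10.67, 10.58, 10.73 and 10.73 in NICD vehicle ears. The control arrays ran from 11.17 to 11.65 (median 11.35) in DNFB ears, against 10.87 to 11.15 (median 10.97) in vehicle ears. The treatments overlapped in neither genotype. The difference in NICD mice, 0.25 ± 0.11, did not pass (adjusted p 0.0702). It passed after centring of the arrays on their medians (0.29, adjusted p 0.0285), without control DNFB replicate 3 (adjusted p 0.0459) and under a robust variance model with a trend (adjusted p 0.0225). Stat3 rose by 0.38 ± 0.087 in control mice (1.30-fold, adjusted p 0.00118). The difference between the effects was -0.13 ± 0.14 (adjusted p 0.788).

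**Figure D2:**
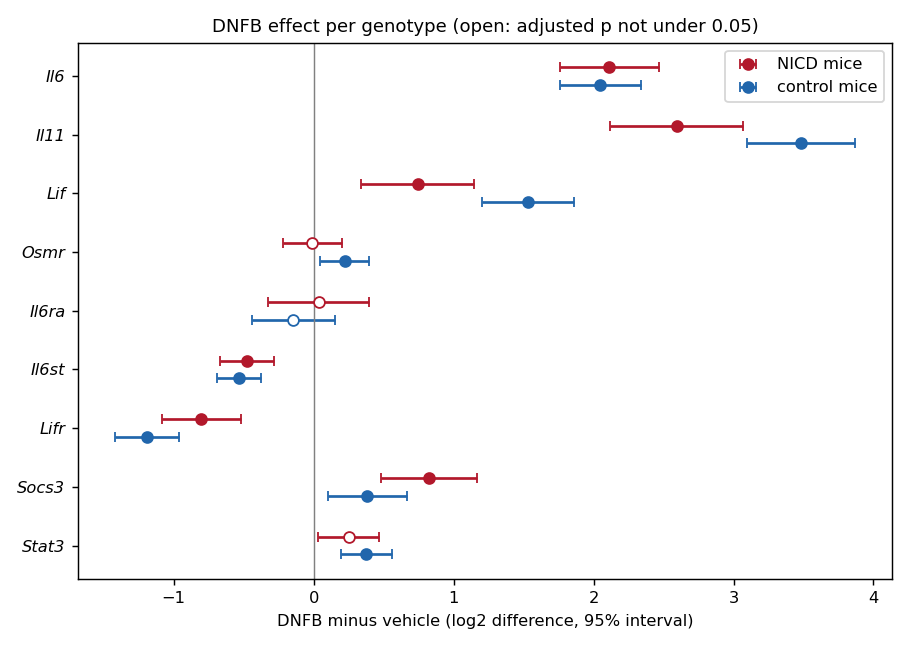
Difference between DNFB and vehicle ears (log2, horizontal axis) for each gene in NICD mice (red, upper) and control mice (blue, lower), with 95% intervals; open points did not pass. Il6, Il11, Lif and Socs3 lie right of 0 and Il6st and Lifr left of 0 in both genotypes.

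Of the 9 genes, 0 passed the limma test of the difference between the DNFB effects, and over all probe sets 2 did (0.0134%). At an unadjusted p under 0.05 there were 3 of 9 (Il11, Lif and Lifr), beside 1580 of 14886 probe sets (10.6%). In each of the 3 the NICD effect was the nearer to 0. This test also compares the sexes and the array scales that go with genotype. The number of probe sets past the threshold ran from 0 to 29 as single arrays were left out, whereas the count of the 9 genes remained at 0.

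Marker RNA of some other cell types differed between the treatments. The counts stand beside 20% up and 18.1% down of all probe sets in NICD mice, and 23.7% and 23.6% in control mice. In NICD mice, 8 of 9 tested neutrophil markers rose with DNFB. The sum of the antilogged values of all 12 listed neutrophil markers was 610 to 771 in DNFB ears, against 143 to 195 in vehicle ears. In control mice 8 of 9 rose too, and the sum was 499 to 2100 in DNFB ears, against 143 to 206 in vehicle ears. Of the 12 neutrophil markers, 2 to 4 lay above the median of the array on NICD vehicle arrays, against 8 to 10 on NICD DNFB arrays. On control arrays it was 2 to 3, against 8 to 11. Neutrophil markers can thus have passed the filter on low values through the DNFB arrays, so these counts are not independent of the rise. Macrophage and monocyte markers rose in 5 of 10 in NICD mice (sum 400 to 622 in DNFB ears, against 215 to 261 in vehicle ears) and in 6 of 10 in control mice (448 to 699, against 207 to 340). Of the 12 listed, 4 to 6 lay above the median of the array on NICD vehicle arrays, against 8 to 10 on NICD DNFB arrays. On control arrays it was 2 to 7, against 6 to 11. The macrophage and monocyte counts may thus not be independent of the rise either. Pan-endothelial markers fell in 9 of 15 and rose in 1 in NICD mice (sum 15600 to 18300 in DNFB ears, against 19500 to 22000 in vehicle ears), and fell in 13 of 15 in control mice (13700 to 16900, against 20900 to 24600). Pericyte markers fell in 8 of 11 in NICD mice (2820 to 3770, against 5450 to 6970) and in 10 of 11 in control mice (3590 to 6130, against 6730 to 8030). Fibroblast markers rose in 2 of 9 and fell in 2 in NICD mice (1310 to 2810 in DNFB ears, against 1690 to 2600 in vehicle ears), and rose in 3 of 9 in control mice (2520 to 4390, against 1530 to 2810). The fibroblast counts in NICD mice were near the shares over all probe sets. Keratinocyte markers rose in 3 of 10 and fell in 1 in NICD mice, and rose in 4 of 10 and fell in 2 in control mice. Their mean log2 value was 7.54 to 8.2 in NICD DNFB ears, against 6.35 to 7.09 in NICD vehicle ears. In control mice it was 7.1 to 9.13 in DNFB ears, against 5.88 to 7.1 in vehicle ears. The keratinocyte sum was 4180 to 6300 in NICD DNFB ears, against 3300 to 5380 in NICD vehicle ears. It was 4030 to 11600 in control DNFB ears, against 2860 to 5740 in control vehicle ears. T and NK cell markers were above the median of the array in at most 4 of 7 on any array. The part of these cells in the DNFB differences of the 9 genes was not tested. In these bulk samples, fewer cells of a type cannot be told apart from less RNA per cell.

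**Figure D3:**
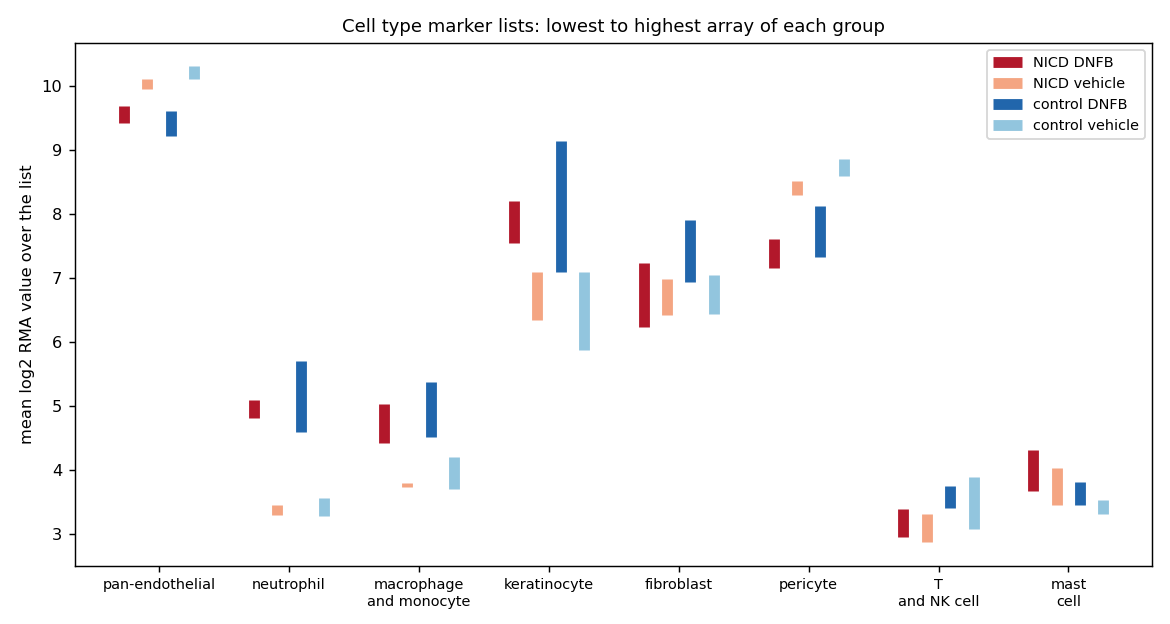
Mean log2 RMA value over each cell type marker list (vertical axis), drawn from the lowest to the highest array of each group (n = 4 in NICD groups, 6 in control groups). Neutrophil and macrophage markers lie higher in DNFB ears, and pan-endothelial and pericyte markers lie lower, in both genotypes. Keratinocyte markers lie higher with DNFB too, although their ranges in control mice touch at 7.1.

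Comparisons of NICD with control mice depend on how the arrays are scaled. As deposited, the median difference over all probe sets was -0.27 in DNFB ears and -0.28 in vehicle ears. After each array was centred on its median it was 0.099 in DNFB ears and 0.045 in vehicle ears. In DNFB ears, 5.45% of probe sets were higher in NICD mice and 35.1% lower as deposited. The shares were 20.7% higher and 8.12% lower after centring, and 11.9% each way after quantile normalization. In vehicle ears, 2.88% were higher and 33% lower as deposited, 11.9% and 6.54% after centring, and 6.85% and 9.35% after quantile normalization. For each gene the value after centring is therefore given beside the value as deposited.

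In DNFB ears, 0 of the 9 genes were higher in NICD mice and 4 were lower as deposited (Il6, Il11, Lif and Stat3), while after centring 4 were higher (Osmr, Il6ra, Il6st and Lifr) and 2 lower (Il11 and Lif). After quantile normalization 0 were higher and 3 lower (Il11, Lif and Stat3). At an unadjusted p under 0.05 in limma the counts as deposited were the same, 0 higher and 4 lower. The groups did not overlap for those 4 genes, beside 3.28% of all probe sets higher and 21.7% lower without overlap. Il11 and Lif were the 2 genes lower under all 3 scalings. Il11 averaged 5.70 ± 0.40 in NICD DNFB ears (SD, n = 4) and 7.22 ± 0.29 in control DNFB ears (SD, n = 6), with no overlap. Its difference was -1.52 ± 0.21 as deposited (2.86-fold lower, adjusted p 3.16e-05), -1.14 after centring (adjusted p 0.000421) and -1.24 after quantile normalization (adjusted p 0.000313). Lif averaged 4.24 ± 0.29 in NICD DNFB ears (SD, n = 4) and 5.31 ± 0.26 in control DNFB ears (SD, n = 6), also with no overlap. Its difference was -1.07 ± 0.18 as deposited (2.10-fold lower, adjusted p 0.00015), -0.70 after centring (adjusted p 0.00759) and -0.65 after quantile normalization (adjusted p 0.0127). Neither gene lost its call as any single array was left out of the fit of the deposited values.

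Il6 was lower in NICD DNFB ears as deposited (-0.45 ± 0.15, adjusted p 0.0262, no overlap), and the difference after centring was -0.080 (adjusted p 0.737). After quantile normalization it was -0.42 (adjusted p 0.0609). As deposited, the call was also lost without control DNFB replicate 1 or NICD DNFB replicate 1, 2 or 3 (adjusted p up to 0.0764). Stat3 was lower by the same amount as deposited (-0.45 ± 0.097, adjusted p 0.00131, no overlap) and differed by -0.080 after centring (adjusted p 0.559) and by -0.44 after quantile normalization (adjusted p 0.00408). None of the 4 receptors passed as deposited: Osmr differed by 0.028, Il6ra by 0.21, Il6st by -0.0016 and Lifr by 0.19, with adjusted p from 0.211 to 0.99. After centring they were higher in NICD mice, Osmr by 0.40, Il6ra by 0.58, Il6st by 0.37 and Lifr by 0.57, with adjusted p from 0.00314 to 0.0116. After quantile normalization none of the 4 passed (0.047, 0.34, 0.0086 and 0.30 in the same order, adjusted p from 0.0819 to 0.954). Lifr alone among these passed as deposited without control DNFB replicate 6 (0.28, adjusted p 0.0394). The 2 Socs3 probe sets disagreed: the brighter one differed by -0.23 ± 0.15 as deposited (adjusted p 0.23) and by 0.14 after centring (adjusted p 0.517). The other was lower by both, -0.81 ± 0.13 as deposited (adjusted p 0.000126) and -0.44 after centring (adjusted p 0.0212).

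In vehicle ears, 1 of the 9 genes was higher in NICD mice (Osmr) and 4 were lower (Il6, Il11, Socs3 and Stat3) as deposited. After centring 2 were higher (Osmr and Il6st) and 0 lower in limma, beside 3 higher and 1 lower at an unadjusted p under 0.05. The groups did not overlap for 1 gene higher (Osmr) and 2 lower (Lifr and Stat3), beside 1.83% and 22.2% of all probe sets. Osmr was the 1 gene that passed under all 3 scalings, by 0.26 ± 0.093 as deposited (adjusted p 0.0359), 0.59 after centring (adjusted p 0.000295) and 0.35 after quantile normalization (adjusted p 0.0197). The deposited value lost its call without any 1 of control vehicle replicates 2, 4 and 6 or NICD vehicle replicates 1, 2 and 3 (adjusted p up to 0.122). Socs3 differed by -0.67 ± 0.15 as deposited (adjusted p 0.00225) and by -0.34 after centring (adjusted p 0.125), and its other probe set by -0.93 ± 0.13 (adjusted p 4.39e-05) and -0.60 (adjusted p 0.0046). Il11 differed by -0.63 ± 0.21 (adjusted p 0.0238), and by -0.30 after centring (adjusted p 0.33). The deposited Il11 value lost its call without any 1 of control vehicle replicates 4 and 5 or NICD vehicle replicates 2 and 3 (adjusted p up to 0.0738). Il6 differed by -0.52 ± 0.15 (adjusted p 0.0145, and 0.0725 without NICD vehicle replicate 1), and by -0.19 after centring (adjusted p 0.43). Stat3 differed by -0.32 ± 0.097 (adjusted p 0.0139), and by 0.0022 after centring (adjusted p 0.992). After quantile normalization Socs3 (brighter probe set) differed by -0.45, Il11 by -0.41, Il6 by -0.39 and Stat3 by -0.25 (adjusted p from 0.0506 to 0.178). Lif, Il6ra and Lifr passed neither as deposited nor after centring. Without NICD vehicle replicate 4 the counts as deposited were again 1 higher and 4 lower.

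Of 9 fibroblast markers in DNFB ears, 3 passed as deposited, each of them lower in NICD mice, and 6 did not pass, beside the 35.1% of all probe sets that were lower. After centring 1 was lower, Pdgfra (-1.24, adjusted p 0.00226), and 1 was higher, Thy1 (0.79, adjusted p 0.0327), with a median of -0.14 over the list. The sum of the list was 1310 to 2810 in NICD DNFB ears, against 2520 to 4390 in control DNFB ears, ranges that overlapped. Of 11 pericyte markers there, 3 were lower and 1 higher as deposited, and 2 lower and 1 higher after centring. Of 10 keratinocyte markers, 1 was lower and 0 higher as deposited, and 0 lower and 1 higher after centring. Over all probe sets 35.1% were lower and 5.45% higher as deposited, and 8.12% lower and 20.7% higher after centring. Pan-endothelial markers were higher in NICD DNFB ears in 3 of 15 as deposited and in 12 of 15 after centring, beside 5.45% and 20.7% of all probe sets. The part of other cells in the genotype differences of Il11 and Lif was not tested.

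**Figure D4:**
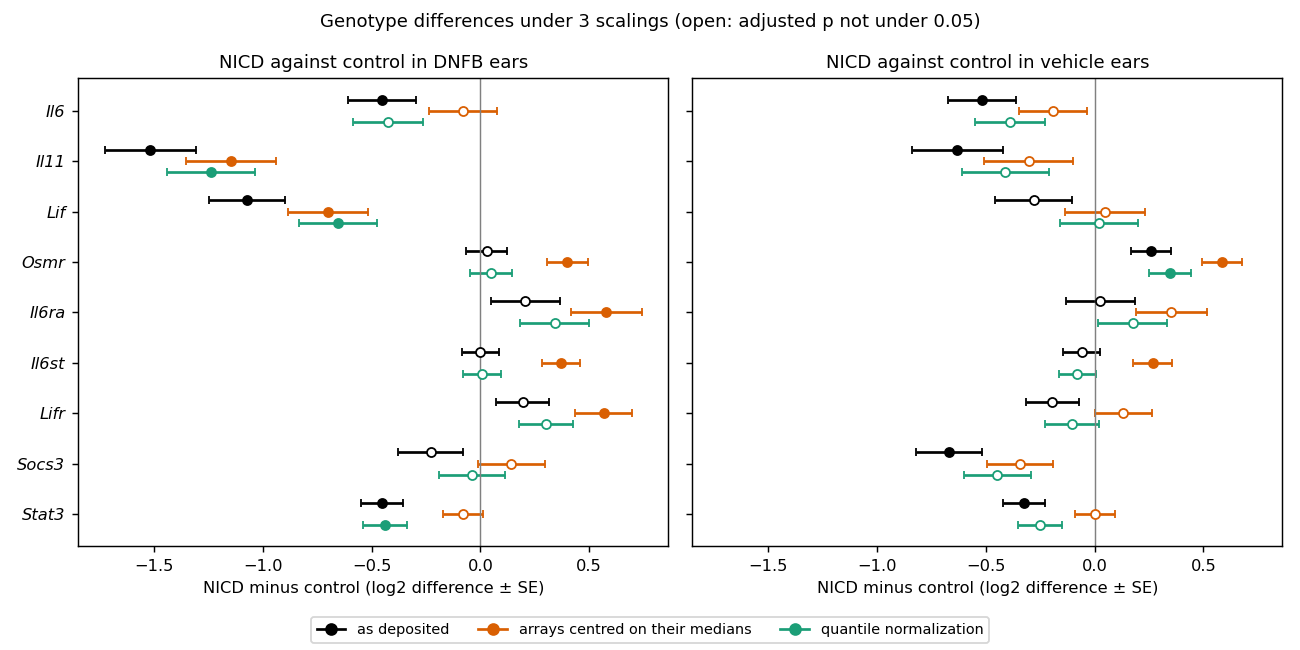
Difference between NICD and control mice (log2 ± SE, horizontal axes) for each gene in DNFB ears (left) and vehicle ears (right), as deposited, after centring on array medians and after quantile normalization; open points did not pass. Il11 and Lif in DNFB ears lie left of 0 and pass under all 3 scalings, and Osmr in vehicle ears lies right of 0 and passes under all 3.

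The other genes of the pathway were taken from lists of ligands, receptors and sheddases, JAK kinases and STATs, inhibitors, and known STAT3 targets, without the 9 genes above. Counts with DNFB in these lists stand beside 20% up and 18.1% down of all probe sets in NICD mice, and 23.7% and 23.6% in control mice. Among 5 other ligand genes tested, 1 passed with DNFB, Clcf1, a partner cytokine that acts through the CNTF receptor. Clcf1 rose by 1.08 ± 0.18 in NICD mice (adjusted p 7.82e-05) and by 0.62 ± 0.15 in control mice (adjusted p 0.00177). Osm, the oncostatin M gene, averaged 3.60 in NICD DNFB ears and 3.30 in NICD vehicle ears, and 3.64 in control DNFB ears and 3.49 in control vehicle ears. It passed in neither genotype (adjusted p 0.255 and 0.479). Ebi3, Il27 and Ctf1, genes of further ligand subunits, were lower in NICD than control DNFB ears as deposited, with differences of -0.63, -0.53 and -0.49, and after centring their adjusted p ran from 0.243 to 0.676.

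Among 4 other receptor and sheddase genes tested, 0 passed with DNFB in NICD mice in limma, and 1 was lower at an unadjusted p under 0.05. In control mice 1 rose, Cntfr, the binding receptor for ciliary neurotrophic factor (1.00 ± 0.23, adjusted p 0.00141, groups overlapping), and 1 fell, Adam10, a sheddase of Il6ra (-0.50 ± 0.11, adjusted p 0.000945). Cntfr averaged 4.23 in NICD DNFB ears and 6.00 in control DNFB ears, -1.77 ± 0.26 as deposited (adjusted p 6.09e-05) and -1.40 after centring (adjusted p 0.000684). Adam17, another sheddase of Il6ra, was higher in NICD than control mice by 0.30 in DNFB ears (adjusted p 0.0469) and by 0.36 in vehicle ears (adjusted p 0.0195). After centring its differences were 0.67 (adjusted p 0.000423) and 0.69 (adjusted p 0.000636). Il11ra1, the binding receptor for IL-11, was not analysed here.

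Among 7 JAK and STAT genes tested besides Stat3, 3 rose and 1 fell with DNFB in NICD mice, and 3 rose and 2 fell in control mice. Of all probe sets, 20% rose and 18.1% fell in NICD mice, and 23.7% rose and 23.6% fell in control mice. Stat5a, a transcription factor downstream of many cytokine receptors, rose by 1.60 ± 0.23 in NICD mice (adjusted p 1.07e-05) and by 1.35 ± 0.19 in control mice (adjusted p 4.49e-06). Tyk2, a JAK kinase, fell by 1.22 ± 0.20 in NICD mice (adjusted p 5.48e-05) and by 1.24 ± 0.16 in control mice (adjusted p 2.7e-06). Jak2 rose by 0.54 in each genotype (adjusted p 0.000553 in NICD mice, 4.17e-05 in control mice). Stat5b rose by 0.53 ± 0.12 in NICD mice (adjusted p 0.00169). Jak1, the main kinase bound to gp130, passed in neither (0.14, adjusted p 0.25 in NICD mice, and 0.11, adjusted p 0.249 in control mice). Between genotypes, Stat5a was lower in NICD mice in DNFB ears (-1.11 as deposited, -0.74 and adjusted p 0.0155 after centring) and in vehicle ears (-1.36, and -1.03 and adjusted p 0.0028 after centring). Jak2 was lower as well, with a difference of -0.70 in each (-0.33 and -0.37 after centring, adjusted p 0.0165 and 0.0132). Jak1 differed by -0.55 in DNFB ears as deposited (adjusted p 9.31e-05) and by -0.18 after centring (adjusted p 0.11). In vehicle ears Jak1 differed by -0.58 (adjusted p 6.58e-05) and by -0.26 after centring (adjusted p 0.0358). Stat6, the STAT of interleukin-4 signalling, was higher in NICD DNFB ears (0.34 as deposited, adjusted p 0.0156, and 0.71 after centring, adjusted p 0.000187).

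Among 15 inhibitor genes besides Socs3, 6 rose and 2 fell with DNFB in NICD mice, and 6 rose and 3 fell in control mice. These counts stand beside 20% up and 18.1% down of all probe sets in NICD mice, and 23.7% and 23.6% in control mice. Socs1, the close relative of Socs3, rose by 1.31 ± 0.14 in NICD mice (adjusted p 4.54e-07) and by 0.82 ± 0.12 in control mice (adjusted p 7.1e-06). Ptpn2, a phosphatase of JAKs and STATs, rose by 1.15 ± 0.19 in NICD mice (adjusted p 5.06e-05) and by 1.55 ± 0.15 in control mice (adjusted p 5.8e-08). Socs5 rose by 1.20 ± 0.19 in NICD mice (adjusted p 3.44e-05) and by 0.63 ± 0.15 in control mice (adjusted p 0.00196), and Pias3, an inhibitor that binds STAT3, fell by 0.64 ± 0.11 in control mice (adjusted p 9.6e-05). Between genotypes, 5 passed in DNFB ears as deposited, each of them lower in NICD mice, and 5 were higher and 1 lower after centring, beside the shares over all probe sets (35.1% lower as deposited, 20.7% higher and 8.12% lower after centring). The gene lower after centring was Ptpn2, at -1.08 ± 0.17 as deposited (adjusted p 0.000108) and -0.70 after centring (adjusted p 0.00511).

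Of 34 known STAT3 target genes, 15 rose and 5 fell with DNFB in NICD mice (median 0.35), and 15 rose and 9 fell in control mice (median 0.20). The shares over all probe sets were 20% up and 18.1% down in NICD mice, and 23.7% and 23.6% in control mice. Several of the 34 genes are targets of NF-kB too. Saa3, an acute phase protein, rose by 3.42 ± 0.36 in NICD mice (adjusted p 3.44e-07) and by 4.05 ± 0.30 in control mice (adjusted p 1.07e-09). Its means in vehicle ears, 3.23 in NICD mice and 3.53 in control mice, lay below the medians of those arrays. Its inclusion through the filter on low values may therefore not be independent of the rise. Ccl2, a monocyte chemokine, rose by 3.57 ± 0.27 in NICD mice (adjusted p 6.12e-09) and by 3.24 ± 0.22 in control mice (adjusted p 4.01e-10). Timp1, a protease inhibitor, rose by 3.57 ± 0.27 in NICD mice (adjusted p 5.77e-09) and by 3.10 ± 0.22 in control mice (adjusted p 6.7e-10). Il1rn, an antagonist of interleukin-1, rose by 2.08 ± 0.33 in NICD mice (adjusted p 4.44e-05) and by 2.02 ± 0.27 in control mice (adjusted p 3.75e-06). Steap4, a metalloreductase, was lower in NICD mice in DNFB ears (-1.11 ± 0.15 as deposited, adjusted p 2.19e-05; -0.73 after centring, adjusted p 0.00138) and in vehicle ears (-1.32 ± 0.15, adjusted p 4.84e-06; -0.998, adjusted p 0.000204). Nfkbiz, a nuclear cofactor of NF-kB, was lower in vehicle ears (-0.86 ± 0.12, adjusted p 3.73e-05; -0.53 after centring, adjusted p 0.00373), and Bcl6, a transcriptional repressor, in DNFB ears (-0.97 ± 0.20, adjusted p 0.000989; -0.60 after centring, adjusted p 0.0274). Fgl2, a secreted immune regulator, was higher in NICD vehicle ears (0.85 ± 0.19 as deposited, adjusted p 0.00176, and 1.18 after centring, adjusted p 0.000285), although the groups overlapped. Over the list in DNFB ears, 17 passed as deposited, each of them lower in NICD mice, beside 35.1% of all probe sets. After centring 9 were higher and 3 lower, beside 20.7% and 8.12% of all probe sets. Hp (-1.08) and Saa3 (-0.93) were lower there as deposited, but not after centring (adjusted p 0.108 and 0.223). The same held for Birc5 in vehicle ears (-1.07, adjusted p 0.104 after centring). In vehicle ears 1 gene of the list was higher and 19 lower as deposited, beside 2.88% and 33% of all probe sets. After centring 5 were higher and 4 lower, beside 11.9% and 6.54%.

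**Figure D5:**
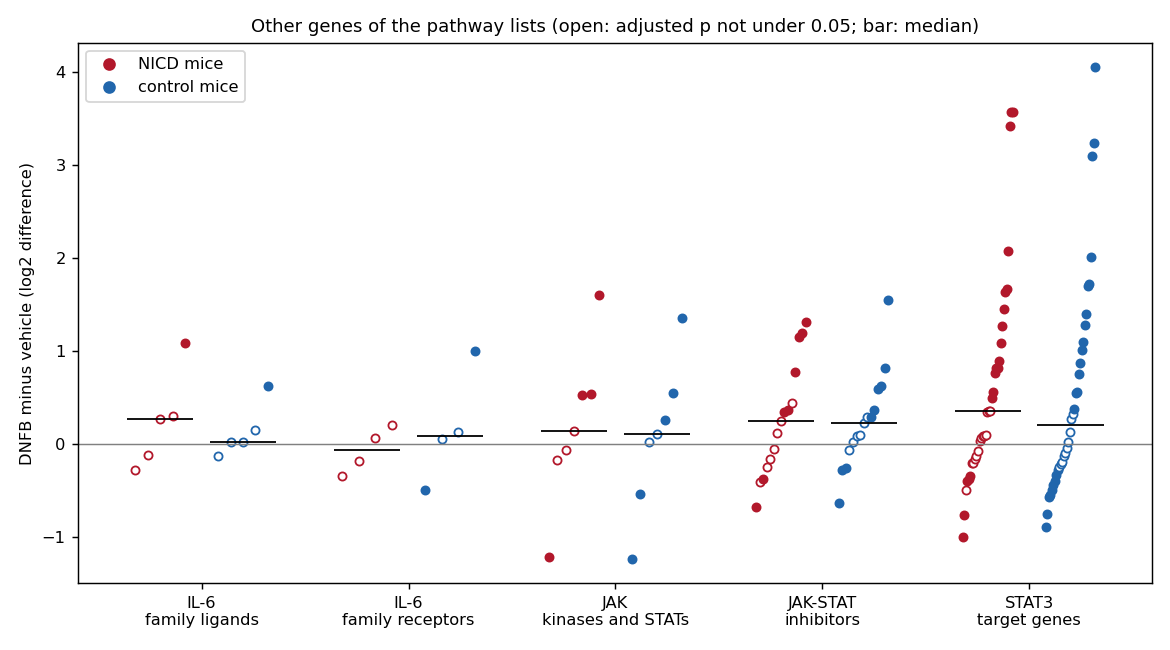
Difference between DNFB and vehicle ears (log2, vertical axis) for the other tested genes of 5 pathway lists in NICD mice (red, left) and control mice (blue, right); open points did not pass and bars are medians. The highest points are STAT3 target genes, with Timp1 and Ccl2 at 3.57 in NICD mice and Saa3 at 4.05 in control mice.

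The genes whose values followed each of the 9 most closely over the 20 arrays were ranked by Pearson's r, a description without a test, since the arrays share 4 groups and 2 array scales. For Il6 they were Mettl1 (r = 0.986), Ccl2 (r = 0.985) and Psmc6 (r = 0.982), and for Il11 Ncl (r = 0.986), Ltv1 (r = 0.982) and Ppan (r = 0.98). For Lif they were Apex2 (r = 0.962), Rrn3 (r = 0.937) and Thg1l (r = 0.936). For Il6st they were Slco2b1 (r = 0.973), Ace (r = 0.972) and Tcn2 (r = 0.968), and for Lifr Fcgrt (r = 0.961), Cmtm8 (r = 0.96) and Sec14l1 (r = 0.959). For Stat3 they were Tlk2 (r = 0.946), Usp36 (r = 0.942) and Rbm22 (r = 0.939), and for Socs3 Il4ra (r = 0.91), Rnf19b (r = 0.903) and Kpna3 (r = 0.9). Osmr and Il6ra had no gene as close: the nearest were Nudt4 (r = 0.793), Mbd2 (r = 0.786) and Rab7 (r = 0.738) for Osmr, and Gtpbp8 (r = 0.708), Brf2 (r = 0.685) and Ap1g2 (r = 0.671) for Il6ra.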

How the data were processed

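The 20 arrays of sorted ear endothelial cells were used as the log2 values per probe set that the authors deposited, made with RMA in Affymetrix Expression Console per the submitters' processing notes. Versions, options and the probe set annotation are not given in the sources used here, and neither are raw intensities. The array minimum was 1.18 to 1.30 on NICD arrays and 0.412 to 0.590 on control arrays, so it is open whether all arrays were normalized together. Groups were taken from the sample titles.

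Of 41345 probe sets, 23521 had 1 gene symbol in the platform annotation, 1814 several and 16010 none. Probe sets of 1 symbol above the median of the array on at least 4 arrays were tested, 14886 of 14178 genes. Limma 3.58.1 in R 4.3.3 fitted 1 mean per group to all 20 arrays, with Benjamini-Hochberg adjustment over all probe sets tested and a threshold of 0.05. The number of arrays limits the precision. The fit was checked on simulated data.

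The 9 genes and all lists were chosen with earlier results of these data known. Besides the 9 genes, the rule names up to 4 passing genes of each list and comparison, and always Osm, Il11ra1, Jak1 and Socs1. Il11ra1 had no probe set carrying its symbol alone, so it has no value. The rule also names up to 3 genes most like each of the 9 by Pearson's r. Pdgfra, Thy1, Notch1, Xist and Eif2s3y were named after their values were seen. Alternatives were other filters, all probe sets, median centring, quantile normalization, trended and robust variances, fits to the compared groups alone, the replicate number as a block (fixed or random), the mean of all probe sets of a gene, and each array left out. The other Socs3 probe set was added after the data were seen. Promoters are from RefSeq (GRCm38.p6). Plots used Python 3.11.15 with matplotlib 3.10.9.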

Additional observations from a re-analysis of the deposited data

Results flagged for a closer look

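In 3 of the 36 combinations of gene and group, 1 array stood apart from the others of its group by Dixon's criterion, and chance alone gives about 1 in 20. Osmr read 9.69 on replicate 4 of the NICD DNFB group, above the other 3 arrays. Il6ra read 7.54 on replicate 2 of the NICD vehicle group, below the other 3. Stat3 read 10.80 on replicate 2 of the NICD DNFB group, below the other 3.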

How the results depend on the processing

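The rises of Il6, Il11, Lif and Socs3 and the falls of Il6st and Lifr with DNFB in NICD mice passed under every alternative run, as did those of Il6, Il11, Lif, Stat3, Il6st and Lifr in control mice, and the lower Il11 and Lif of NICD DNFB ears. The other calls between genotypes changed with the scaling, except Osmr in vehicle ears, whose call was lost with no filter (adjusted p 0.0545) and in a fit to the compared groups alone (adjusted p 0.0691). Between genotypes in vehicle ears, 5343 probe sets passed as deposited, 2741 after centring and 2412 after quantile normalization, and of the 9 genes 5, 2 and 1; in DNFB ears 6036 probe sets passed as deposited and 3553 after quantile normalization. Leaving out single arrays gave 3 to 5 of the 9 genes in vehicle ears, with 3 without control vehicle replicate 4 or NICD vehicle replicate 1, 2 or 3. For the difference between the DNFB effects, 2 probe sets passed, against 1 with no filter or after quantile normalization, 0 with all probe sets or with the mean of probe sets, 27 with trended and robust variances, 20 with the random replicate block and 0 to 29 as arrays were left out. The cause was not tested. Signs turned after centring for Osmr with DNFB in NICD mice (0.037), between genotypes for Il6st (0.37) and Socs3 (0.14) in DNFB ears, and for Lif (0.046), Il6st (0.27), Lifr (0.13) and Stat3 (0.0022) in vehicle ears. They turned after quantile normalization for Il6ra with DNFB in NICD mice (-0.024), between genotypes for Il6st in DNFB ears (0.0086) and Lif in vehicle ears (0.021), and for the difference between effects in Il6 (-0.036). Leaving out single arrays gave ranges across 0 for Osmr (-0.041 to 0.048) and Il6ra (-0.080 to 0.144) with DNFB in NICD mice, Osmr (-0.0051 to 0.074) and Il6st (-0.026 to 0.039) between genotypes in DNFB ears, Il6ra in vehicle ears (-0.012 to 0.106), and Il6 in the difference between effects (-0.083 to 0.183); none of these values passed in the fit of all arrays.

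Deviations of same-numbered arrays from their group means correlated at 0.0418 to 0.269, over 0.1 in 5 of 10 pairs, with 7 of 10 closest to their own number. All 10 correlations were above 0. The labels do not say that the replicate numbers pair ears, so the main fit did not pair the arrays. Whether same-numbered arrays share a mouse was not tested. With replicate number as a replicate block, 6 of the 9 genes passed with DNFB in NICD mice (5702 probe sets) and 7 in control mice (7139 probe sets), where Osmr did not (adjusted p 0.0531), and 3 probe sets passed the difference between effects. The fixed block could not be fitted between genotypes, whose replicate numbers mark different mice. Sex cannot be added to the fit, since each genotype holds 1 sex by Xist and Eif2s3y. The labels name no array batch, and the difference in array scale goes with genotype, so no term for it can be added either.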
